A study of Mus musculus with 8 samples.

Results

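The genes described here are the NRF2 pathway and the antioxidant machinery it serves, as transcribed in mouse CD4+ T cells. They are taken by gene name from a list drawn up with earlier results of these data known: 34 genes of the NRF2, glutathione, thioredoxin, peroxidase, pentose phosphate and iron storage systems, out of 54532 genes listed. Spleen CD4+ helper T cells of wild-type (WT) mice were the source, and their messenger RNA was sequenced in bulk. Each of 2 groups held 4 libraries, one from cells given vehicle and the other from cells given dimethyl succinate for 3 days. The headers of the deposited comparison write DMSO for the vehicle group, and a time is given for the treated group only. The sources used here give neither the strain, age and sex of the mice nor the dose of the ester, and do not say whether libraries came from separate animals or cultures. Both groups carried the same genotype, WT, and the only labelled difference was the treatment. The p-values below therefore measure the spread between these libraries, which may be technical.

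NRF2, encoded by Nfe2l2, is a transcription factor held at low protein level by KEAP1, an adaptor that marks it for degradation. Oxidants and electrophiles modify cysteines of KEAP1, NRF2 then accumulates, pairs with a small MAF protein and binds antioxidant response elements in the promoters of genes that make glutathione, thioredoxin, NADPH and iron-binding proteins. Activated T cells use these systems to buffer the oxidants that signalling and mitochondrial respiration produce. Dimethyl fumarate, the unsaturated relative of the ester used here, is a known NRF2 activator that reacts with KEAP1, and dimethyl succinate lacks its reactive double bond. The series concerns succinate, T cell infiltration and the chemokine CCL1 in obstructive kidney fibrosis, and these libraries compare helper T cell transcripts with and without the ester.

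The response element is shown first, since it is the sequence through which NRF2 acts on its direct targets. Promoter sequences from RefSeq (build GRCm38.p6, from 250 bases before to 50 bases after a transcript start) matched 29 of the 34 genes, with 37 starts. Each was searched on both strands for the core element TGACNNNGC and for TGANTCAGC, the form that also holds the AP-1 motif TGANTCA, so that a match to the second can also be an AP-1 match. The core was found in 9 of the 29 genes, or 24.3% of their starts, against 12.4% of all 32851 promoters. TGANTCAGC was found in 4 genes, Srxn1, Prdx1, Osgin1 and Gstp1, or 10.8% of their starts, against 1.19% of all promoters. A match describes letters in a window and is not a measured binding site. The windows below lie upstream of the start and outside annotated exons of the gene itself, and exons of other genes were not checked. The windows printed are for the genes of sulfiredoxin, peroxiredoxin 1, OSGIN1, the modifier subunit of glutamate-cysteine ligase, thioredoxin reductase 1 and NRF2 itself. They read 5′ to 3′ on the strand given, and capitals mark the matched element.
Srxn1, chr2:152105463-152105503, plus strand: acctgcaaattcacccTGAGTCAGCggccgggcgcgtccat
Prdx1, chr4:116685450-116685490, minus strand: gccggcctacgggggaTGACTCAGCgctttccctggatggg
Osgin1, chr8:119437032-119437072, minus strand: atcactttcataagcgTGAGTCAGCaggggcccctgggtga
Gclm, chr3:122245407-122245447, minus strand: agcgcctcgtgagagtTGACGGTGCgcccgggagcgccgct
Txnrd1, chr10:82859098-82859138, minus strand: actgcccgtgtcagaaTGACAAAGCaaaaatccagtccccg
Nfe2l2, chr2:75704879-75704913, minus strand: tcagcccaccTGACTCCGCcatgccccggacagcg
Counted from the transcript start, with negative numbers upstream, the match spans -45 to -37 in Srxn1, -133 to -125 in Prdx1, -99 to -91 in Osgin1, -134 to -126 in Gclm, -92 to -84 in Txnrd1 and -240 to -232 in Nfe2l2. The Prdx1 element fits both patterns. The other genes with a match were G6pdx, Mafg, Pgd, Sod1 and Gstp1. Of these, the matches of Mafg (-222 to -214) and Sod1 (-56 to -48) also lay upstream and outside annotated exons of their own gene. They are not printed. Srxn1 had a further core match after the start, from 28 to 36, in a window that overlaps an annotated exon. The Nfe2l2 window is shorter, at 35 bases, because the promoter sequence ends there.

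Total counts ran from 13407295 to 16688854 per library, of which the 34 genes took 0.382% to 0.426%. Transcripts of CD4+ T cells were present in every library: the 10 markers of the list summed to 2780 to 3407 CPM (counts scaled to a common library size) under vehicle and 3373 to 3545 CPM under dimethyl succinate. Erythroid cells and macrophages carry much catalase, peroxiredoxin 2, biliverdin reductase B, ferritin and heme oxygenase, and their markers were near the floor. The 9 erythroid markers found summed to 1.65 to 3.25 CPM under vehicle and 2.45 to 3.16 CPM under dimethyl succinate, with none at 0 throughout. The 14 markers of monocytes and macrophages summed to 5.08 to 8.08 and 6.96 to 11.2 CPM, with C1qc at 0 in all libraries. The 10 B cell markers summed to 6.19 to 7.86 CPM over the 8 libraries, 2 CD8 markers to 5.50 to 7.54 CPM and 8 neutrophil markers to 0.700 to 1.50 CPM, with S100a9 at 0. In bulk RNA, fewer cells of a type and less RNA per cell cannot be told apart. Vehicle replicate 4 stood apart from the rest: mitochondrial genes took 0.252% of its counts and 1.16% to 1.48% in the other libraries, and it correlated with them at a mean r of 0.981, where the other 7 had 0.989 to 0.991 (across genes). Results are therefore given with it and, for most genes, also without it, and its part in them is shown by the values without it.

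Most of these genes stood above the median tested gene by level. On the scale of deposited FPKM (fragments scaled to transcript length and library size), which can be compared between genes, the ferritin heavy chain Fth1 stood highest, at 460 ± 73.6 in the vehicle group and 423 ± 22.1 in the treated group (SD, n = 4). Its listed length is 866 bases, shorter than the 3469 exon bases of the GENCODE M21 model, and a shorter length gives a higher FPKM. Ferritin light chain Ftl1 followed at 268 ± 49.5 and 240 ± 28.8 FPKM, then Txn1, the cytosolic thioredoxin, at 207 ± 31.6 and 192 ± 9.23, and Prdx1, a cytosolic peroxiredoxin, at 87.6 ± 8.23 and 82.0 ± 3.63. Under vehicle the spreads of Ftl1 and Txn1 met, as did those of Prdx1 and the next gene, Gstp1, at 64.7 ± 16.7. At the listed lengths Fth1 lay clear of Ftl1, and Txn1 of Prdx1. The listed length of Gstp1, 757 bases, is also shorter than its 1548 exon bases in GENCODE M21. The places of Fth1 and Gstp1 in the order are therefore uncertain. Nfe2l2 and Keap1 stood in the lower part of the order, at 13.0 ± 2.02 and 15.9 ± 0.128 FPKM under vehicle. At the low end stood classical NRF2 targets: Srxn1 at 4.25 ± 0.498, the quinone reductase Nqo1 at 1.58 ± 0.44, biliverdin reductase B Blvrb at 1.12 ± 0.26 and Osgin1 at 0.262 ± 0.154 FPKM under vehicle. By FPKM at the listed lengths, Fth1 ranked at the 99.5th percentile of tested genes, Nqo1 at the 25.6th and Blvrb at the 17.8th.

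**Figure D1:**
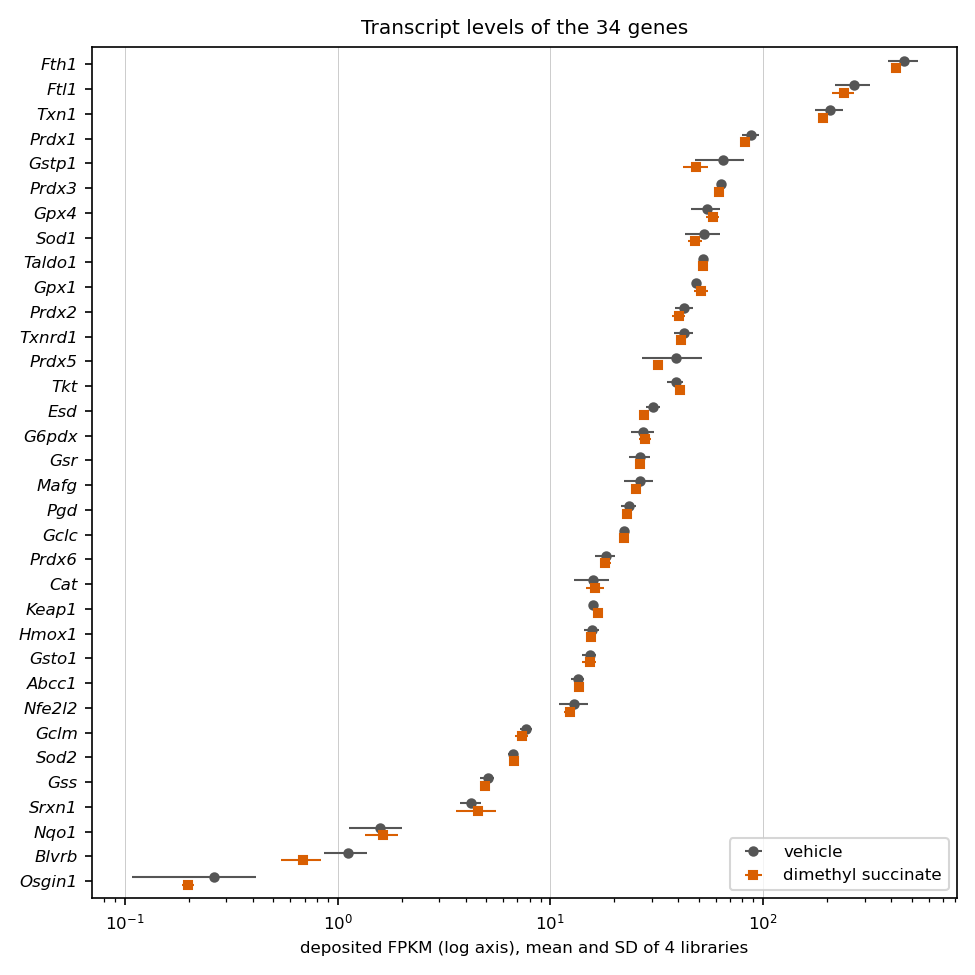
Deposited FPKM of the 34 genes on a log axis, with the mean and SD of the 4 vehicle libraries (grey circles) and the 4 dimethyl succinate libraries (orange squares). Levels run from 0.262 FPKM for Osgin1 to 460 for Fth1 under vehicle, and the pairs of points lie close together for most genes.

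No antioxidant gene passed the test between the groups, and most fitted changes were small. In the quasi-likelihood test of edgeR, 0 of the 33 genes with enough counts reached an adjusted p below 0.05, beside 0.0% of the 13981 genes tested, and the smallest adjusted p of the 33 was 0.802. At an unadjusted p below 0.05, 0 were higher, where 2.93% of all tested genes were, and 2 were lower, Gstp1 and Blvrb, where 2.83% of all were. The 2 of 33, or 6.06%, stand near the 5.76% of all genes past that p in either direction. The libraries of the groups overlapped for all 33. Over all tested genes they did not overlap for 4.82%, with 2.5% higher and 2.32% lower. The median log2 fold change was -0.016, beside -0.0011 over all tested genes. Of the 33 genes, 13 lay above 0 and 20 below, where 49.6% and 50.4% of all tested genes did.

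The measurements were tight enough to bound most changes. For 29 of the 33 genes the 95% interval of the log2 fold change excluded a 1.5-fold change in either direction, against 71.7% of all tested genes. The exceptions were Blvrb, Gstp1 and Prdx5 on the lower side and Nqo1 on the higher. For 32 the interval excluded a 2-fold change, Blvrb being the exception. The highest upper bound was 0.59 on the log2 scale, for Nqo1, one of the genes with the fewest counts. Without vehicle replicate 4, again 0 of 33 passed, where 0.197% of 14232 tested genes did. At an unadjusted p below 0.05, 0 were then higher (4.43% of all genes) and 4 lower (4.12% of all genes): Prdx1, Gstp1, Nfe2l2 and Blvrb, with a smallest adjusted p of 0.420 in edgeR's test. These 4 of 33, or 12.1%, stand beside 8.54% of all genes past that p in either direction. Non-overlapping groups were again found for 0 of the 33, beside 9.63% of all genes, 4.99% higher and 4.64% lower. The interval then excluded a 1.5-fold change for 31 genes, and the median was -0.0083.

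**Figure D2:**
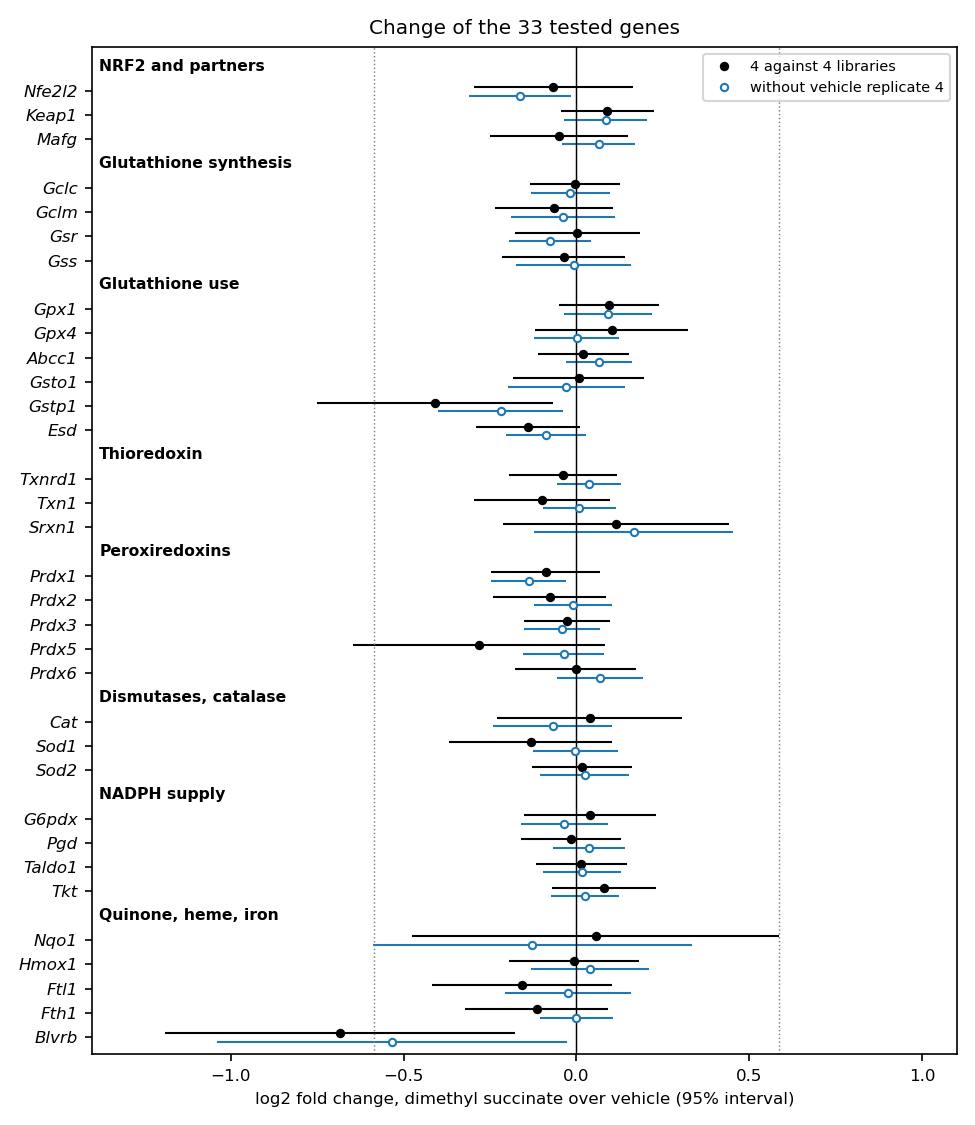
Log2 fold change of dimethyl succinate over vehicle with its 95% interval for the 33 tested genes, grouped by role, from all 8 libraries (black) and without vehicle replicate 4 (open blue). Dotted lines mark a 1.5-fold change. With all libraries 29 of the 33 intervals lie inside them, and Gstp1, Prdx5 and Blvrb reach farthest to the left.

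Nfe2l2, Keap1 and Mafg, the top of the pathway, had small fitted changes of both signs. Nfe2l2 (chromosome 2, 75675513 to 75704641, GRCm38, minus strand) stood at 57.1, 48.5, 53.2 and 39.0 CPM in vehicle replicates 1 to 4, and at 47.1, 49.8, 48.8 and 43.3 CPM in the dimethyl succinate replicates. Vehicle replicate 4 was the lowest and replicate 1 the highest of the 8, so the treated libraries lay inside the vehicle range. The log2 fold change was -0.067 ± 0.106 (SE). Without vehicle replicate 4 it was -0.16 ± 0.072, an unadjusted p of 0.0311 and an adjusted p of 0.523 in edgeR's test, and dimethyl succinate replicates 2 and 3 still lay above vehicle replicate 2. NRF2 is regulated mainly through the stability of its protein, which these data do not measure.

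Keap1 (chromosome 9, 21229730 to 21239361, minus strand), the repressor, was steady under vehicle at 74.4, 75.2, 75.6 and 74.2 CPM and stood at 84.4, 75.0, 82.4 and 76.5 CPM under dimethyl succinate. A single treated library, replicate 2, lay within the vehicle range, and the other 3 lay above all vehicle libraries. The log2 fold change was 0.089 ± 0.062 (SE), or 0.085 without vehicle replicate 4, and the exact two-sided permutation p was 0.0857, where 4 against 4 cannot go below 0.0286. Exon bases of Keap1 are shared with Gm16754 on the opposite strand (10.9%), and strand use in counting was not given. Mafg, a small MAF partner of NRF2, stood between 136 and 139 CPM in vehicle replicates 1 to 3, at 183 in replicate 4 and between 137 and 154 under dimethyl succinate. Its log2 fold change turned from -0.050 to 0.064 when that library was left out.

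Glutathione synthesis genes had fitted changes near 0. Gclc, the catalytic subunit of glutamate-cysteine ligase and the rate-limiting step, stood at 83.1, 83.1, 88.8 and 81.7 CPM under vehicle and 87.5, 83.5, 84.5 and 80.2 CPM under dimethyl succinate. The 2 sets of values cover nearly the same range. Around its log2 fold change of -0.0047 ± 0.060 (SE), the 95% interval ran from -0.13 to 0.13. Gclm, the modifier subunit and a sensitive NRF2 target, stood at 50.6, 44.0, 49.1 and 51.1 CPM under vehicle and 42.1, 47.4, 49.6 and 47.2 CPM under dimethyl succinate. The lowest library was a treated one and the highest a vehicle one, and the log2 fold change was -0.065 ± 0.078 (SE). Gss, which adds glycine to complete glutathione, had -0.037 ± 0.082, and Gsr, which returns oxidised glutathione to its reduced form, 0.0021 ± 0.084. Of these 4 genes, 1 lay above 0 with all libraries and 0 without vehicle replicate 4, with a range then of -0.076 to -0.0083.

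Among 6 genes that use glutathione, 4 had a log2 fold change above 0 and 2 below, or 3 and 3 without vehicle replicate 4. Gstp1, a pi-class glutathione S-transferase (chromosome 19, 4035407 to 4037921, minus strand), stood at 39.7, 42.2, 47.3 and 67.3 CPM in the vehicle libraries and at 44.1, 32.9, 35.5 and 35.6 CPM in the dimethyl succinate libraries. Vehicle replicate 4 was far above the rest, dimethyl succinate replicate 1 lay among the vehicle libraries, and the other 3 treated libraries lay below all of them. The log2 fold change was -0.41 ± 0.156 (SE), an unadjusted p of 0.0226 and an adjusted p of 0.802 in edgeR's test. Without vehicle replicate 4 it was -0.22 ± 0.088, with an adjusted p of 0.474. Of 50-base windows in its transcripts, 33.7% also occur in Gstp2, so its counts are uncertain, although Gstp2 itself held 0 to 17 counts per library. Gstp3, a pi-class neighbour by name picked after its value was seen, had a log2 fold change of -0.16 ± 0.083, or -0.10 without vehicle replicate 4.

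The glutathione peroxidases of this group, both selenoenzymes, stood slightly higher on average with all libraries. Gpx1, the cytosolic glutathione peroxidase, stood at 69.3, 70.8, 69.8 and 69.4 CPM under vehicle and 74.5, 76.6, 67.2 and 79.9 CPM under dimethyl succinate. In 3 of the 4 treated libraries it was above every vehicle library and in replicate 3 below them all. The log2 fold change of Gpx1 was 0.094 ± 0.067 (SE), or 0.091 without vehicle replicate 4. Gpx4, which reduces lipid peroxides in membranes, stood at 96.1, 99.9, 106 and 73.3 CPM under vehicle and 108, 94.2, 94.7 and 107 CPM under dimethyl succinate. Its log2 fold change of 0.10 ± 0.102 became 0.00014 without vehicle replicate 4, the lowest library. Gpx4 shares 34.7% of its 50-base windows with the pseudogene Gpx4-ps2. Esd, an esterase that frees glutathione from its formaldehyde adduct, had -0.14 ± 0.070, or -0.088 without vehicle replicate 4, and its unadjusted p of 0.0660 gave an adjusted p of 0.802 in edgeR's test. Abcc1, an exporter of glutathione conjugates, and Gsto1, an omega-class transferase, had log2 fold changes of 0.020 ± 0.061 and 0.0060 ± 0.088. Without vehicle replicate 4 they had 0.065 and -0.030.

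Of the 3 thioredoxin genes, 1 had a log2 fold change above 0 with all libraries and 3 did without vehicle replicate 4, none past the unadjusted p. Txnrd1, the cytosolic thioredoxin reductase (chromosome 10, 82833951 to 82897712, plus strand), stood at 290.0, 278, 293 and 348 CPM under vehicle and at 291, 293, 294 and 298 CPM under dimethyl succinate. Vehicle replicate 4 alone stood high, and the treated libraries lay within the range of all vehicle libraries. The log2 fold change was -0.039 ± 0.072 (SE), or 0.036 ± 0.045 without that library. Srxn1, sulfiredoxin, which repairs over-oxidised peroxiredoxins and is a strong NRF2 target in many cells, stood at 10.1, 12.2, 12.5 and 13.4 CPM under vehicle and at 16.9, 10.2, 12.2 and 12.8 CPM under dimethyl succinate. These rest on 143 to 248 counts per library. Only dimethyl succinate replicate 1 exceeded the vehicle range, and without it the log2 fold change went from 0.11 ± 0.151 (SE) to -0.033. Txn1, the reductase's substrate, had -0.10 ± 0.091, or 0.0082 without vehicle replicate 4.

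**Figure D3:**
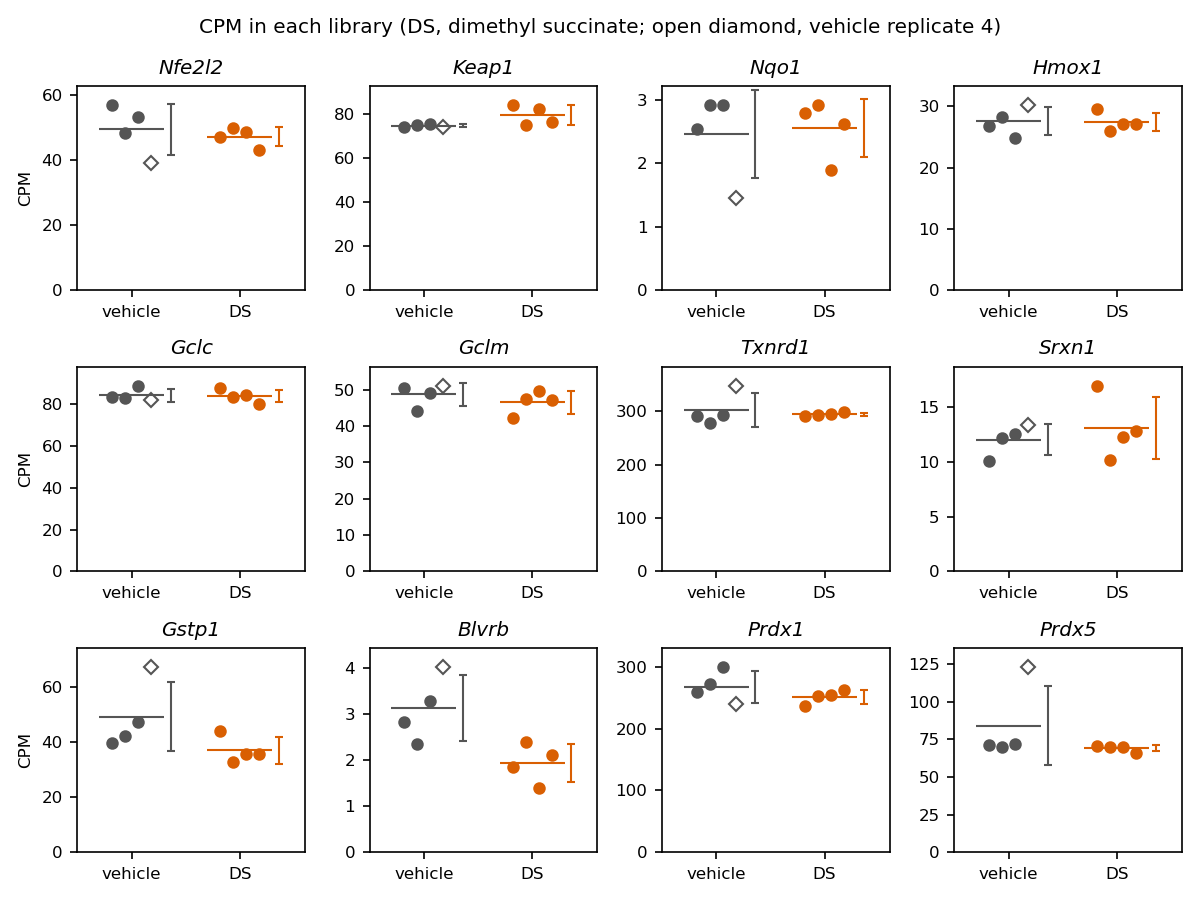
CPM of 12 genes in each library on axes that start at 0, for vehicle (grey) and dimethyl succinate (DS, orange), with the group mean as a line and the SD as a bar. The open diamond is vehicle replicate 4, which stands far above the other libraries for Prdx5 (123.3 CPM) and Gstp1 (67.3 CPM) and below them for Nqo1 (1.46 CPM).

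Peroxiredoxins are the abundant enzymes that reduce hydrogen peroxide with electrons from thioredoxin. All 5 had a log2 fold change below 0, from -0.28 to -0.0018, where 50.4% of all tested genes did. Without vehicle replicate 4, 4 of 5 did, beside 50.05% of all genes tested in that fit. Prdx1 (chromosome 4, 116685544 to 116700822, plus strand) stood at 259, 272, 300.1 and 239 CPM under vehicle and 236, 253, 254 and 263 CPM under dimethyl succinate. The groups overlapped, through vehicle replicate 4 and through dimethyl succinate replicate 4. Its log2 fold change was -0.089 ± 0.073 (SE), and -0.14 ± 0.053 without vehicle replicate 4, an unadjusted p of 0.0143 and an adjusted p of 0.420 in edgeR's test. Prdx1 shares 8.81% of its 50-base windows with other genes, 5.44% with Gm21399. Prdx5, a peroxiredoxin of mitochondria and peroxisomes, is given in full after its values were seen, because 1 library stood far off: it was at 71.1, 70.02, 71.9 and 123.3 CPM under vehicle and at 70.4, 70.1, 69.9 and 66.1 CPM under dimethyl succinate. The other 7 libraries lay close together, and its log2 fold change of -0.28 ± 0.165 became -0.037 ± 0.057 without vehicle replicate 4. Trmt112, on the opposite strand, shares 19.1% of the exon bases of Prdx5 and was also high there, with 90.7 CPM in that library and 47.8 to 54.2 CPM in the other 7. The mitochondrial Prdx3 had -0.028 ± 0.058, Prdx2 -0.077 ± 0.075 and Prdx6, which uses glutathione, -0.0018 ± 0.081. Without vehicle replicate 4, Prdx3 had -0.042, Prdx2 -0.010 and Prdx6 0.067.

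The dismutases and catalase, which remove superoxide and hydrogen peroxide, had fitted changes of both signs, 2 of 3 above 0 with all libraries and 1 of 3 without vehicle replicate 4. Sod1, the cytosolic copper and zinc enzyme, ranged from 176 to 264 CPM under vehicle and 177 to 210 CPM under dimethyl succinate, and its log2 fold change, -0.13 ± 0.108 (SE), shrank to -0.0036 once vehicle replicate 4 was left out. Sod2, the mitochondrial manganese enzyme, stood at 67.2 ± 3.72 CPM under vehicle and 68.0 ± 3.09 CPM under dimethyl succinate (SD, n = 4). Of its 50-base windows, 21.04% also occur in other genes, most of them in AC166110.4 (17.6%). Cat, catalase, stood between 31.9 and 50.3 CPM under vehicle and between 37.3 and 46.8 CPM under dimethyl succinate, with 0.038 ± 0.123 turning to -0.069 without vehicle replicate 4, its lowest library.

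Genes that supply NADPH, the reductant of both systems, lay near 0. G6pdx, glucose-6-phosphate dehydrogenase, the entry to the pentose phosphate pathway, stood at 84.4 ± 10.6 CPM under vehicle and 86.8 ± 5.38 CPM under dimethyl succinate (SD, n = 4), with 13.6% of its exon bases shared with Ikbkg on the opposite strand. Pgd, which makes the second NADPH, stood at 152 ± 11.3 and 150 ± 7.47 CPM. In the non-oxidative branch, Taldo1, transaldolase, stood at 113 ± 4.39 and 114 ± 6.06 CPM, and Tkt, transketolase, at 286 ± 24.8 and 303 ± 9.88 CPM. Log2 fold changes of the 4 ran from -0.016 to 0.080, or -0.036 to 0.036 without vehicle replicate 4.

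The quinone, heme and iron genes include the classical reporters of NRF2 activity. Nqo1 (chromosome 8, 107388225 to 107403206, minus strand), NAD(P)H quinone dehydrogenase, stood at 2.54, 2.93, 2.92 and 1.46 CPM under vehicle and 2.80, 2.92, 1.90 and 2.62 CPM under dimethyl succinate, from 21 to 49 counts per library. Apart from vehicle replicate 4 and dimethyl succinate replicate 3, the libraries lay between 2.54 and 2.93 CPM. For the log2 fold change of 0.055 ± 0.245 (SE) the 95% interval ran from -0.48 to 0.59, which excludes a 1.5-fold decrease but not a 1.5-fold increase. Without vehicle replicate 4 the value was -0.13 and the interval ran from -0.59 to 0.33. That interval excludes a 1.5-fold increase but not a 1.5-fold decrease. Hmox1 (chromosome 8, 75093621 to 75100589, plus strand), heme oxygenase 1, stood at 26.8, 28.3, 24.8 and 30.3 CPM under vehicle and 29.5, 26.0, 27.2 and 27.0 CPM under dimethyl succinate. Its highest and lowest libraries were both vehicle ones, and the log2 fold change was -0.0078 ± 0.087 (SE), or 0.039 with vehicle replicate 4 left out.

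Blvrb (chromosome 7, 27447978 to 27466144, plus strand), a heme catabolic reductase best known from red cells, had the largest fitted change. It stood at 2.82, 2.35, 3.29 and 4.04 CPM under vehicle and at 1.84, 2.39, 1.41 and 2.11 CPM under dimethyl succinate, from 23 to 58 counts per library. The groups overlapped only because dimethyl succinate replicate 2 lay just above vehicle replicate 2. The log2 fold change was -0.68 ± 0.234 (SE), an unadjusted p of 0.0122, an adjusted p of 0.802 in edgeR's test and an exact two-sided permutation p of 0.0571. Without vehicle replicate 4 it was -0.53 ± 0.246, with an adjusted p of 0.555. Erythroid markers, for whose cells Blvrb is typical, summed to 1.65 to 3.25 CPM under vehicle and 2.45 to 3.16 CPM under dimethyl succinate, and their part in the result was not tested.

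The ferritin chains, which store iron and are induced by NRF2 as well as by iron, were led by vehicle replicate 4. Ftl1 stood at 343, 305, 339 and 455 CPM under vehicle and 371, 329, 317 and 277 CPM under dimethyl succinate. Fth1 stood at 349, 389, 370 and 491 CPM under vehicle and 375, 355, 353 and 395 CPM under dimethyl succinate. Treated and vehicle libraries lay intermingled in both genes once that library was set aside. Log2 fold changes were -0.16 ± 0.120 for Ftl1 and -0.11 ± 0.096 for Fth1, and -0.025 and -0.00019 without it. Ftl1 shares 58.4% of its 50-base windows with other genes, chiefly the copy Ftl1-ps1, so its counts are uncertain. Osgin1, an oxidative stress induced growth inhibitor, had 5 to 18 counts per library and did not pass the filter for testing. It stood at 0.703 ± 0.415 CPM under vehicle and 0.537 ± 0.0356 CPM under dimethyl succinate (SD, n = 4), with an exact two-sided permutation p of 0.600.

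Vehicle replicate 4 deviated in both directions for these genes. It was the highest of the 8 libraries for 16 of the 33 tested genes, or 48.5%, and the lowest for 9, or 27.3%, where over all tested genes it was highest for 29.0% and lowest for 29.4%. The 9 lowest in it were Keap1, Gsto1, Nfe2l2, Nqo1, Gsr, Gpx4, Cat, G6pdx and Tkt, and those highest in it included both ferritin chains, Txn1, Txnrd1, Sod1, Prdx5 and Gstp1. Its median deviation over the 33 genes was 0.104 on the log2 CPM scale, against -0.047 to 0.039 in the other 7 libraries. The 34 genes together summed to 4377 CPM in it and to 3786 to 3964 CPM elsewhere. In the same library the CD4+ T cell markers summed to 2780 CPM, where the other vehicle libraries had 3322 to 3407 CPM, and 5 platelet markers, mostly Itga2b, summed to 52.3 CPM, where the other vehicle libraries had 28.3 to 32.9 CPM. The 8 dendritic cell markers, led by Batf3 and with Cd209a and Siglech at 0, summed to 34.2 CPM in it, to 23.0 to 26.3 CPM in the other vehicle libraries and to 24.4 to 27.2 CPM under dimethyl succinate. The 7 natural killer cell markers summed to 28.0 CPM in it, within the 24.2 to 30.1 CPM of the vehicle libraries, and to 23.1 to 29.2 CPM under dimethyl succinate. The part of these cells in the deviations was not tested.

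**Figure D4:**
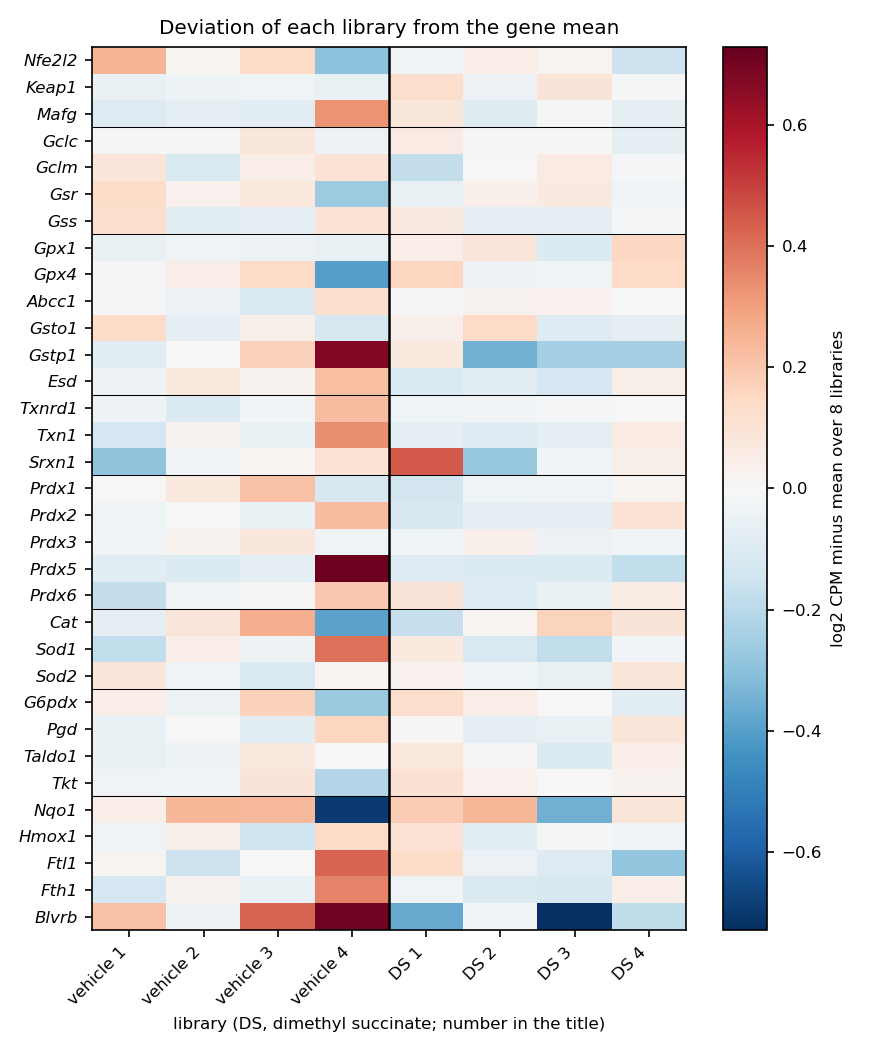
Log2 CPM of each library minus the mean over 8 libraries, for the 33 tested genes (rows, grouped by role) in the 4 vehicle and 4 dimethyl succinate (DS) libraries (columns). Apart from Blvrb in dimethyl succinate replicate 3, the deepest colours stand in the column of vehicle replicate 4, red for Prdx5, Blvrb and Gstp1 and blue for Nqo1.

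Genes with and without an element in the 300 bases searched covered overlapping ranges of log2 fold change, a comparison given as a description. Bases farther from the start were not searched, so a gene without a match may hold an element there. No promoter sequence was at hand for 5 members, Hmox1, Gclc, Gsr, Abcc1 and Prdx6, which are in neither set. Of the 11 genes whose promoter window held either form, 10 were tested, with log2 fold changes from -0.41 (Gstp1) to 0.11 (Srxn1) and a median of -0.058. Of the 18 with neither form, the range was -0.68 (Blvrb) to 0.10 (Gpx4) and the median -0.011. Without vehicle replicate 4 the medians were -0.020 and -0.0093. The windows printed above belong to Srxn1 at 0.11, Prdx1 at -0.089, Gclm at -0.065, Txnrd1 at -0.039 and Nfe2l2 at -0.067 on the log2 scale, with Osgin1 untested.

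The wider redox network was read from 8 lists fixed by function. In these lists of other genes of these pathways, 171 genes in all, 146 were tested and 0 passed the adjusted threshold in edgeR's test, while the unadjusted p was below 0.05 for 2 higher and 3 lower genes, beside the 2.93% and 2.83% of all tested genes. Their median log2 fold change was -0.024, or -0.012 without vehicle replicate 4, when again 0 of 147 passed, and the unadjusted p picked out 2 higher and 6 lower genes, beside 4.43% and 4.12% of all genes tested in that fit. Among 19 tested regulators of NRF2, such as the repressors Bach1 and Bach2 and the ligase subunit Cul3, and 21 other NRF2 targets, such as the cystine carrier Slc7a11, none reached even the unadjusted p. The same held, with all libraries, for 18 genes of the pentose phosphate pathway and NADPH supply and for 13 genes of oxidant sources and other defence. When vehicle replicate 4 was left out, 1 gene of the pentose phosphate and NADPH list was lower at that p. The lists of regulators, other NRF2 targets and oxidant sources again had none. List medians ran from -0.054, for thioredoxin and methionine sulfoxide genes, to 0.017, for iron and heme handling.

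Of the 5 genes past the unadjusted p, Glo1 had the smallest, 0.00657. Glo1, glyoxalase I, which clears methylglyoxal with glutathione, stood at 62.2, 67.5, 63.3 and 77.6 CPM under vehicle and 55.7, 55.9, 58.5 and 57.2 CPM under dimethyl succinate. All treated libraries lay below all vehicle ones, the log2 fold change was -0.25 ± 0.077 (SE), or -0.18 without vehicle replicate 4, and the adjusted p was 0.802 in edgeR's test. Gsta4, a transferase for lipid aldehydes, was lower at -0.94 ± 0.434 but held under 2 CPM in every library. Its value without vehicle replicate 4 was -0.79, with an unadjusted p of 0.0855 in edgeR's test. Sesn2, a stress-induced sestrin, stood at 179 ± 2.91 CPM under vehicle and 199 ± 3.88 CPM under dimethyl succinate (SD, n = 4). The groups had no overlap and its log2 fold change was 0.15 ± 0.052, or 0.14 without vehicle replicate 4. Slc39a14, a carrier of zinc and iron, had 0.15 ± 0.059, or 0.14 without that library, also with no overlap. Over all tested genes the groups did not overlap for 4.82%. Selenot, a selenoprotein of the endoplasmic reticulum, had -0.16 ± 0.067, or -0.14 without that library, with the groups overlapping. Each of the 5 had an adjusted p of 0.802 in edgeR's test.

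**Figure D5:**
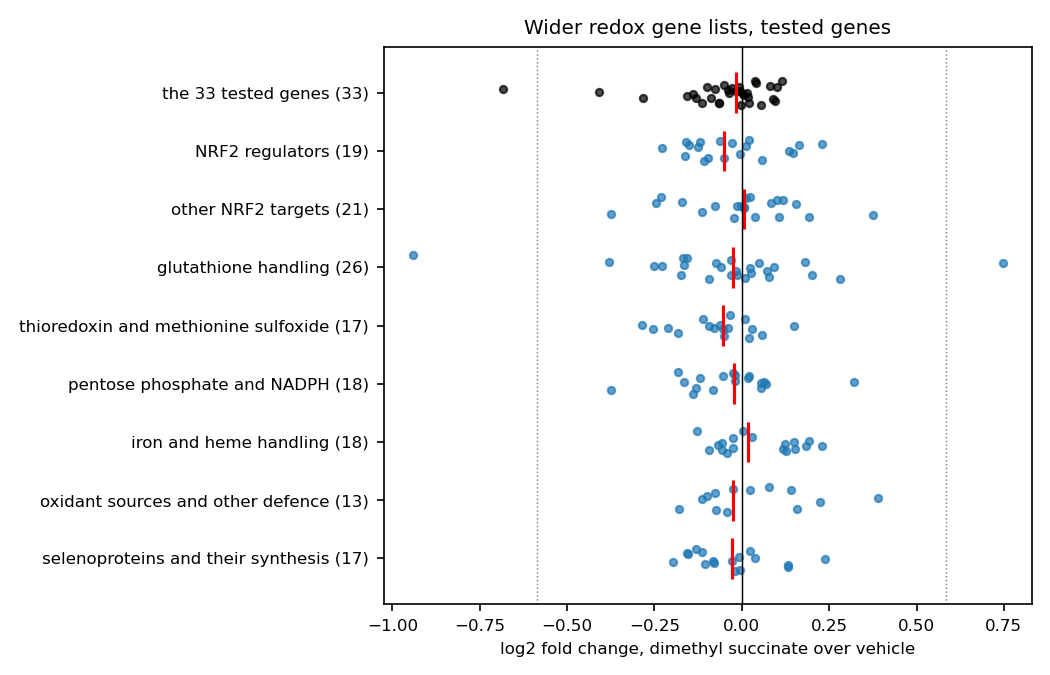
Log2 fold change of each tested gene (points, shifted vertically for view) in the 33 genes (black) and in 8 wider redox lists, with the number of genes in brackets. Red bars are medians, between -0.054 and 0.017, and dotted lines mark a 1.5-fold change.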

How the data were processed

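Bulk mRNA libraries of spleen CD4+ T cells, 4 from vehicle and 4 from dimethyl succinate, were analysed from 1 deposited table. The submitters' processing notes name HISAT2 2.0.5, while the counting tool, annotation, genome build and use of strand have no entry in the sources used here. Coordinates equal those of GENCODE M21 (GRCm38) for 32 of the 34 genes, all but Fth1 and Gstp1. The authors deposited raw counts per gene, FPKM per gene, group means as a normalised signal, log2 fold changes and p-values of their own, and gene lengths, all per the file headers.

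Counts were tested with edgeR 4.0.16 in R 4.3.3 (filterByExpr, TMM factors, robust quasi-likelihood F test, 4 against 4, no covariate), with Benjamini-Hochberg adjustment over all tested genes at 0.05, two-sided. CPM used TMM-scaled totals, log2 CPM a prior count of 2, and standard errors came from the F statistic. Alternatives were DESeq2 1.42.0, limma 3.58.1 (voom with and without quality weights, and log2 FPKM with a pseudocount of 1 or 0.1), other scalings and filters, a block on the title number, and omission of each library in turn. The members and lists were chosen with earlier results of these data known. Genes named were all 34 members, with every library's value for 12 of them and for any at an unadjusted p below 0.05 with or without vehicle replicate 4, and up to 2 genes per direction of each wider list. No pair within a group matched to within counting noise (chi-square per gene of at least 2.11), so no library was treated as a repeat sequencing of another. That value cannot tell whether libraries came from separate animals or cultures. The test was run before use on simulated counts in which no library stood apart as vehicle replicate 4 does, so that case was not covered.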

Additional observations from a re-analysis of the deposited data

Results flagged for a closer look

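In 4 of 68 groups of 4 libraries, the highest or lowest library lay far from the other 3 by Dixon's test at 95%, which chance alone does in about 1 in 20 groups. Vehicle replicate 4 was far above the other vehicle libraries for Prdx5, at 123.3 CPM against 70.02 to 71.9, and for Mafg, at 183 CPM against 136 to 139. Dimethyl succinate replicate 4 was the highest treated library for Txn1, at 218 CPM against 196 to 200, and the lowest for Prdx5, at 66.1 CPM against 69.9 to 70.4.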

How the results depend on the processing

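With 4 libraries a group and genes such as Nqo1, Blvrb and Osgin1 at low counts, depth limits what can be seen for those. The median SE of the members was 0.084 on the log2 scale with all libraries and 0.059 without vehicle replicate 4. No alternative brought any of the 34 genes past an adjusted p of 0.05. The count over all genes was 0 in edgeR, and 6 with no low-count filter, 1 with the replicate block, 4 with DESeq2, 40 with quality weights in limma-voom, and 0 to 28 with a library left out, the 28 without vehicle replicate 4. The count of members lower at an unadjusted p was 2 of 33 (2.83% of all tested genes). It became 1 with the stricter filter (2.82% of all), which drops Blvrb, and 3 with quality weights (4.67%). With a library left out it was 1 to 4, while 1.98% to 4.12% of all genes were lower: 1 without dimethyl succinate replicate 2 (2.26%) and 4 without vehicle replicate 4 (4.12%). Members whose groups did not overlap, 0 of 33, were 0 to 2 with a library left out, or at most 6.06%, where 7.08% to 9.63% of all tested genes did not overlap. The labels do not say whether libraries with the same title number were paired. Correlations of same-numbered deviations ran from -0.014 to 0.13, and those of differently numbered ones from -0.12 to 0.086, which cannot decide it. With the replicate block the median log2 fold change of the members was -0.014.

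Of 328 log2 fold changes under alternatives that keep all libraries, 308 kept their sign and 20 turned, in 13 genes. In the main fit these 13 genes had log2 fold changes of 0.102 or smaller in size, and the cause of the turns was not tested. Gsr became -0.00082 with RLE factors, -0.00078 with DESeq2 and -0.044 with quality weights. Prdx6 became 0.0020 with upper quartile factors, 0.00056 with no filter, 0.0049 with the stricter filter, 0.0017 with the replicate block, 0.0016 with limma-voom and 0.027 with quality weights. Gclc became 0.0014 with the stricter filter. Quality weights also turned Mafg (0.030), Nqo1 (-0.16), Hmox1 (0.0071), Txnrd1 (0.029), G6pdx (-0.032), Pgd (0.012), Taldo1 (-0.0059), Cat (-0.021), Gpx4 (-0.019) and Gsto1 (-0.017). With a library left out, 34 of 264 turned, in 17 genes, whose ranges were Abcc1 -0.013 to 0.065, Cat -0.069 to 0.14, G6pdx -0.036 to 0.10, Gclc -0.023 to 0.021, Gsr -0.076 to 0.051, Gsto1 -0.042 to 0.055, Hmox1 -0.055 to 0.039, Mafg -0.089 to 0.064, Nfe2l2 -0.16 to 0.011, Nqo1 -0.13 to 0.18, Pgd -0.046 to 0.036, Prdx6 -0.056 to 0.067, Sod2 -0.015 to 0.052, Srxn1 -0.033 to 0.22, Taldo1 -0.0066 to 0.050, Txn1 -0.15 to 0.0082 and Txnrd1 -0.077 to 0.036.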

Other observations

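The authors' deposited table lists an adjusted p for all 34 genes. In the authors' deposited table that p was below 0.05 for 0 of the 34 and for 4 of 24973 genes, and the smallest among the 34 was 0.696, for Gstp1.

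Copies and neighbours that share sequence with these genes, picked after the sharing was computed, were measured as well. Ftl1-ps1, an annotated copy of Ftl1, stood at 9.10, 10.6, 9.65 and 18.0 CPM under vehicle and 9.77, 7.76, 7.28 and 8.24 CPM under dimethyl succinate. Its log2 fold change was -0.52, and -0.25 with vehicle replicate 4 left out. Gpx4-ps2, the pseudogene that shares windows with Gpx4, had -0.017 ± 0.103 (SE). Ikbkg, opposite G6pdx, had -0.19 ± 0.081 (SE), and -0.12 with that library left out.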
